A study of Mus musculus with 4 samples.

Results

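The messenger RNAs of the cytosolic ribosomal proteins were followed across the single cells of a mouse interneuron study. The 79 genes were taken from the 43348 features of the count matrices by symbol alone. A symbol had to be Rpl or Rps with a number and at most 1 closing letter a, x or l, or be Rpsa, Rplp0, Rplp1 or Rplp2, and the gene had to reach 100 unique molecular identifiers (UMIs) over the 4 matrices. Of 81 matching symbols, Rpl10l with 2 UMIs and Rpl39l with 30 fell under the minimum, while Rpl3l with 115 lay just inside it. The set held 32 small subunit genes and 47 large subunit genes, placed on 19 chromosomes, with 14 of them on chromosome 7.

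A cytosolic ribosome joins a small subunit, which reads the messenger, to a large subunit, which forms the peptide bond, and each is built from ribosomal RNA and many proteins. Most of these proteins are single copies per particle, so cells make them in balanced amounts. Their messengers start with a C followed by a run of pyrimidines, the 5′ terminal oligopyrimidine (TOP) motif, through which the kinase complex mTORC1 and the RNA-binding protein Larp1 control their translation and stability. In the brain, ribosomal protein messengers are known to be abundant in dividing and differentiating progenitors.

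The study asked how loss of the NMDA receptor subunit Grin1 shapes interneurons born in the medial ganglionic eminence (MGE). The 4 samples were neocortex (nCX) and hippocampus (HPC) from Nkx2-1Cre:Grin1wt/wt mice (MGE-*Grin1* wt/wt, here WT) and from littermates with the genotype Nkx2-1Cre:Grin1fl/fl (null), all with the Ai14 TdTomato reporter, at postnatal day 18 to 20 and of both sexes. Each session pooled 3 to 4 mice. Slices of every group were kept in TTX, APV and Actinomycin-D, which block sodium channels, NMDA receptors and transcription, then were dissociated with papain and sorted for live TdTomato cells. Cre was driven by the *Nkx2-1* promoter, and the sorted cells included glial and other cells beside the interneurons.

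Each matrix pooled several 10x libraries, which the barcode suffix separated into 10: WT replicates 1, 2 and 3 and null replicates 1 and 2 in each region. Replicate 1 was made with 10x chemistry v2 and the others with v3, so chemistry, preparation and sequencing depth cannot be told apart. The 26201 cells kept held between 177 (nCX null replicate 1) and 4599 (HPC WT replicate 2) per library. Total UMIs ran from 1488601 to 47338167 per library. HPC WT replicate 2 was shallow, with a median of 1479 UMIs per barcode, against 9508 in HPC null replicate 2. Any pair of libraries shared 0 to 12 cell barcodes. The counts are 3′ UMI counts, which mark transcripts and are not scaled by length.

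The members took up 7371107 of 169924587 UMIs, or 4.34%. For each cell the ribosomal protein share was the percent of its UMIs on the 79 genes, and each library gave the median over its cells of a class. Another 252 features carry -ps in their symbols, the near-identical processed copies that ribosomal protein genes leave in the genome. They held 52062 UMIs in all, 0.0306% of the total, and how many reads of a member fell to or came from such copies is not known, so each member's level carries that uncertainty.

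Among the interneurons the share followed an order of class medians. Parvalbumin cells (PVALB) were lowest, somatostatin cells (SST, with the TH clusters) in the middle and neurogliaform cells (NGFC) highest. PVALB averaged 3.45% ± 0.353 (SD, n = 10 libraries), SST 4.10% ± 0.456 (n = 10) and NGFC 4.58% ± 0.579 (n = 9). PVALB lay below SST in 10 of 10 libraries, by -0.650 percentage points on average, and NGFC above SST in 9 of 9, by 0.451. The spread between libraries of 1 class was of a size like these gaps, so the ranges of the classes overlapped. The order showed within libraries, between the medians of whole classes. Clusters inside SST did not all keep to it. Over all libraries they ran from 3.65% to 4.51%, beside 4.43% and 3.92% in the NGFC clusters and 3.40% and 3.23% in those of PVALB. In nCX WT replicates 1, 2 and 3 SST cluster 24 had 5.30%, 4.42% and 4.13%. NGFC cluster 2 had 5.07%, 4.34% and 4.53% there. The share was a description of the set and was given no test.

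Among the glia the spread was wider. Oligodendrocytes averaged 3.25% ± 0.305 (n = 10) and lay below the interneurons of the same library in 10 of 10, by -0.841 points on average. Oligodendrocyte precursors (OPC) averaged 10.3% ± 2.65 (n = 9), which put them above the oligodendrocytes in 9 of 9 libraries, by 3.67 to 11.6 points. Microglia averaged 11.8% ± 2.06 (n = 6) from 253 cells, above the interneurons in 6 of 6 libraries and above the OPC in 5 of 6. Neither range touched that of the interneurons, whose highest library stood at 5.30%, against a lowest of 7.15% in the OPC and 9.42% in the microglia.

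Cell depth differed between the classes. The libraries' median UMIs per cell ran from 754 to 1967 in microglia, from 1072 to 6300 in OPC, from 1492 to 8363.5 in oligodendrocytes and from 1870 to 14230 in interneurons. The part of depth in the class order was not tested.

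The balance of the 2 subunits also varied with class. The ratio of small to large subunit UMIs averaged 0.669 in interneurons (0.641 to 0.700 over 10 libraries), 0.829 in oligodendrocytes (0.771 to 0.879), 0.776 in OPC (0.688 to 0.818) and 0.850 in microglia (0.766 to 0.901). Every oligodendrocyte and microglia library lay above every interneuron library, while the OPC range overlapped that of the interneurons. The 3 genes of the P-stalk, the arm of the large subunit that recruits elongation factors, took 0.168% of UMIs in interneurons, 0.170% in oligodendrocytes, 0.681% in OPC and 0.784% in microglia.

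**Figure D1:**
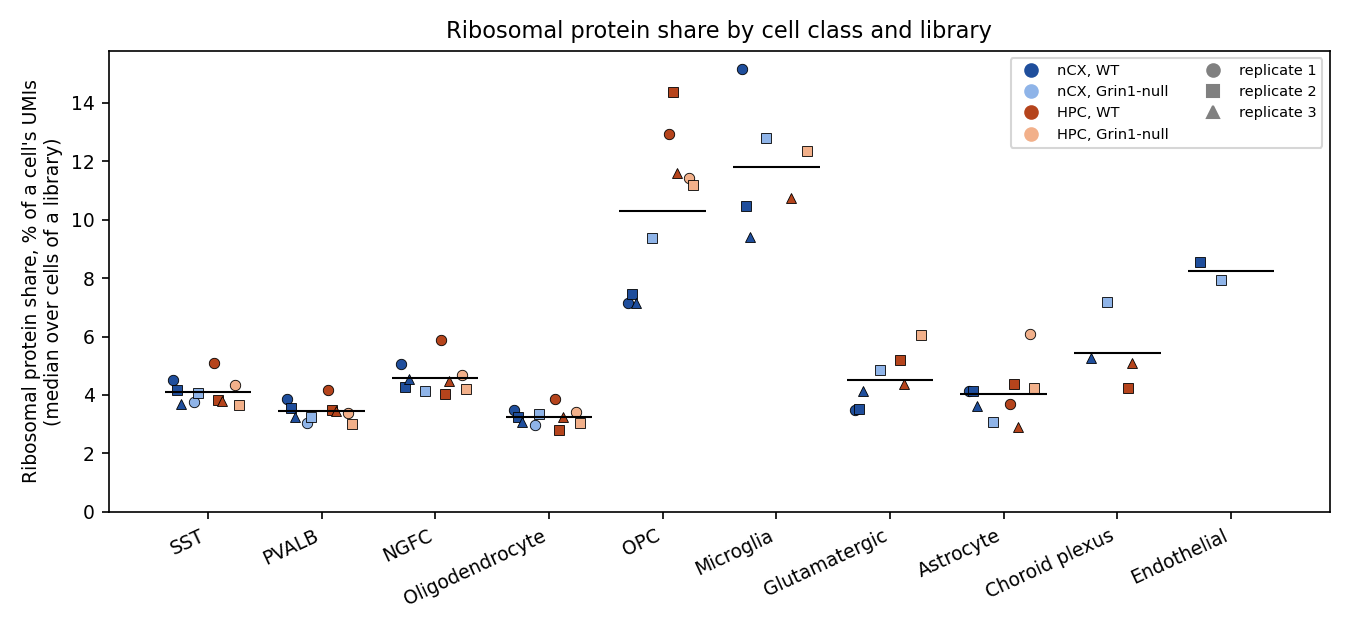
Ribosomal protein share of UMIs per cell (percent, vertical axis) for each cell class (horizontal axis), 1 point per library giving its median over cells, coloured by region and genotype, with the class mean as a line. OPC and microglia lie above the interneuron and oligodendrocyte libraries.

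In interneurons the 79 genes covered a wide range of levels. The highest mean levels over the 10 libraries, in CPM (a gene's UMIs divided by all UMIs of the class in a library, scaled to 1e+06) and therefore affected by how well each 3′ end was caught, were those of Rpl3 (1321 ± 320.04), Rpl41 (1307 ± 294), Rpl23 (1121 ± 211), Rpl9 (1052 ± 192) and Rpl21 (999.8 ± 119). Neighbours in this order did not differ beyond their spread. The median member stood at 513 CPM, and the first 10 genes held 24.4% of the members' UMIs. The lowest were Rpl3l (0.957 ± 0.595), a muscle paralog of Rpl3, then Rps27l (85.7 ± 9.45), Rps4l (101 ± 32.8), Rpl22 (118 ± 33.5) and Rpl5 (174 ± 27.6). Rpl3l did not pass the filter on low counts, and the other 78 members were tested in every comparison.

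Tests were run on UMI counts summed per library and class with edgeR's quasi-likelihood (QL) test and Benjamini-Hochberg adjustment over all genes tested. A gene was called at an adjusted p under 0.01 with a natural-log change of at least 0.1, which is 0.144 on the log2 scale. Classes were compared within the 6 WT libraries, with the library as a block. The members were called as single genes, and the set was described by counts and medians beside those of all genes tested.

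PVALB cells held less of most ribosomal protein messengers than SST cells of the same library. Of 78 members, 43 were called lower and 0 higher, against 12.6% of 11898 genes tested that were called lower. The median change was -0.24 over the members and -0.02 over all genes. Mitochondrial genes took 2.28% of UMIs in PVALB and 1.52% in SST cells, as means over 10 libraries. Their part in the change was not tested. Both subunits took part, with 21 of 32 small and 22 of 46 large subunit genes called lower. For the 0 called higher by edgeR QL, 5 members had a change above 0, 58 members had an unadjusted p under 0.05 in either direction, and DESeq2 also called 0 higher, with 47 lower. Without nCX WT replicate 1 the count was 28, and without nCX WT replicate 2 it was 27.

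Rpl3, which sits near the peptidyl transferase center, had SST levels of 1752, 1284 and 1236 CPM in nCX WT replicates 1, 2 and 3, and 1985, 822 and 1417 in those of HPC. The PVALB levels were 1180, 903 and 912 CPM in nCX and 1340, 597 and 1029.8 in HPC. PVALB lay below SST in 6 of 6 libraries, although the ranges of the classes overlapped because the libraries themselves differed. The change was -0.52 (SE 0.0509, adjusted p = 9.05e-07). Rps27 stood at 393, 348 and 172 CPM in nCX and 415, 433 and 183 in HPC SST cells, and at 251, 224 and 124 in nCX and 269, 365 and 149 in HPC PVALB cells. It too was lower in PVALB cells of each library, by a log2 change of -0.52 (SE 0.0733, adjusted p = 4.58e-05).

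Rpl10, which joins the large subunit late in its maturation, changed by -0.50 (SE 0.071) and Rps20 of the small subunit head by -0.45 (SE 0.056). Among the members named by role, Rps4x (-0.32) and Rpl22 (-0.29) were called lower, though the call of Rpl22 was lost with library-size scaling and when any 1 library was left out other than HPC WT replicate 2. The P-stalk genes were not called: Rplp0 had a log2 change of 0.18 (adjusted p = 0.0518), Rplp1 -0.14 and Rplp2 -0.17. Neither Rpsa (0.06), the small subunit protein also known as the laminin receptor, nor Rps27l (0.10) was called.

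A fit without the library block called 0 of the 78 members by edgeR QL, with 7 at an unadjusted p under 0.05, and DESeq2 was not run without it. The member median in that fit was -0.24, with 73 of 78 below 0. The calls, though not the size of the change, therefore rest on pairing the classes within libraries. A cluster of 525 cells led by the hypothalamic peptide genes *Oxt* and *Avp* had enough PVALB markers for that name but was kept unnamed. Counting it as PVALB, an alternative added after seeing the data, gave 16 members called lower.

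NGFC cells held more of some of these messengers than SST cells. Of 78 members, 16 were called higher and 0 lower, against 9.48% of 11704 genes called higher. The median change was 0.14 over the members and 0.00 over all genes, with 71 members above 0. The calls fell on 4 small and 12 large subunit genes. For the 0 called lower by edgeR QL, 38 members had an unadjusted p under 0.05 in either direction and DESeq2 called 20 higher and 0 lower. Without HPC WT replicate 3 the count was 10, and without the library block edgeR QL called 0, with 7 at an unadjusted p under 0.05. The member median without the block was 0.16. With no filter on low counts 11 were higher and 1 lower and the member median was 0.07.

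Rplp0, the stalk base on which the other P proteins assemble, stood at 248, 179 and 220.0 CPM in SST cells of nCX WT replicates 1, 2 and 3, and at 280.0, 106 and 281 in those of HPC. NGFC cells had 451, 271 and 383 CPM in nCX and 376, 137 and 439 in HPC. NGFC lay above SST in 6 of 6 libraries, with HPC WT replicate 2 low in both classes. The change was 0.62 (SE 0.08, adjusted p = 1.23e-05). Rplp1 (-0.01) and Rplp2 (0.08), which form the tip of the stalk, were not called.

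Rpl18 rose by 0.56 (SE 0.0708), Rpl31 near the peptide exit tunnel by 0.47 (SE 0.0714) and Rpl12 at the foot of the stalk by 0.46 (SE 0.0741). Rpl22 (0.43) and Rpsa (0.38) were called higher as well, Rpl22 not without HPC WT replicate 2 or 3. Rps4l (-0.38, adjusted p = 0.0235, called without HPC WT replicate 1), Rps4x (-0.12) and Rps27l (-0.05) were not called.

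Between oligodendrocytes and interneurons members were called in both directions. Of 78 members, 26 were called higher and 6 lower in oligodendrocytes. Beside these 32 members, 69.5% of 13649 genes were called, 32.8% higher and 36.7% lower. Small subunit genes had a median change of 0.30, with 15 higher and 1 lower, and large subunit genes a median of 0.09, with 11 higher and 5 lower. The scaling mattered here: with plain library-size scaling the median of all genes moved from -0.07 to -0.59, that of the members flipped from 0.17 to -0.36 (small subunit -0.22, large subunit -0.43), and 6 members were called higher and 40 lower. DESeq2 gave a member median of 0.06 beside -0.18 over all genes, with 27 higher and 13 lower, and there the large subunit median flipped to -0.02. Classes given to single cells in place of clusters gave 46 higher and 3 lower, and without the library block 10 were higher and 2 lower.

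Rplp0 stood at 265, 184 and 231 CPM in interneurons of nCX WT replicates 1, 2 and 3 and at 310.0, 121 and 352 in HPC. In oligodendrocytes it stood at 686, 526 and 511 CPM in nCX and 805, 253 and 712 in HPC. Oligodendrocytes lay above interneurons in 6 of 6 libraries, and only HPC WT replicate 2 of the oligodendrocytes fell inside the interneuron range. The change was 1.77 (SE 0.119, adjusted p = 4.8e-08), while Rplp1 (0.21) and Rplp2 (-0.02) were not called.

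Rps27l, a paralog of Rps27 known as a target of p53, stood at 83.4, 76.6 and 77.5 CPM in nCX WT interneurons and 93.8, 73.0 and 87.1 in HPC. Oligodendrocytes had 243, 145 and 197 CPM in nCX and 235, 134 and 204 in HPC. The classes did not overlap in the WT libraries, and the change was 1.73 (SE 0.128, adjusted p = 1.11e-07). Rpsa rose by 1.32 (SE 0.112) and Rps9, which helps set decoding accuracy, by 1.31 (SE 0.102). All 4 of these genes were called higher under library-size scaling and DESeq2 too.

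The largest fall was that of Rps4l, an Rps4x-like copy that the annotation lists as a transcribed processed pseudogene. It stood at 73.1, 94.9 and 154 CPM in nCX WT interneurons and 58.5, 76.8 and 135 in HPC, and at 15.6, 17.4 and 20.7 CPM in nCX and 16.0, 16.1 and 29.6 in HPC oligodendrocytes. The ranges were far apart, and the change was -1.80 (SE 0.157, adjusted p = 5.35e-07). Its parent Rps4x, with 0.29, was not called. Rpl17 (-0.73), Rpl12 (-0.70) and Rpl21 (-0.58) were also lower in oligodendrocytes. Rpl3 and Rpl10a, which have the next falls, changed by -0.46 each, and Rpl22 was called higher at 0.70, which library-size scaling lowered to 0.18, uncalled.

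OPC held more of nearly every ribosomal protein messenger than oligodendrocytes. Of 78 members, 72 were called higher and 0 lower, against 24.9% of 11785 genes called higher. The median change was 1.12 over the members and -0.06 over all genes, and 78 of 78 lay above 0. The calls fell on 28 of 32 small and 44 of 46 large subunit genes. For the 0 called lower by edgeR QL, 77 members had an unadjusted p under 0.05 and DESeq2 called 76 higher. Library-size scaling moved the median of all genes to 0.51 and that of the members to 1.74, with 78 called higher.

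Rpl13 of the large subunit stood at 538, 604 and 557 CPM in oligodendrocytes of nCX WT replicates 1, 2 and 3 and 627, 493 and 646 in HPC. OPC had 2982, 3452 and 3311 CPM in nCX and 3715, 3352 and 3953 in HPC. The classes did not overlap, and the change was 1.96 (SE 0.191, adjusted p = 2.55e-09). Rpl10a stood at 131, 153 and 127 CPM in nCX and 164, 143 and 190.1 in HPC oligodendrocytes, and at 466, 959.9 and 656 in nCX and 976, 1143 and 1131 in HPC precursors. All OPC libraries again lay above all oligodendrocyte libraries, by a log2 change of 1.91 (SE 0.185, adjusted p = 2.24e-09).

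Rpl12 rose by 1.82 (SE 0.169) and Rps19, needed to mature the small subunit RNA, by 1.61 (SE 0.198). The stalk genes were higher together, Rplp1 by 1.51, Rplp2 by 1.13 and Rplp0 by 0.98, as were Rps4x (1.34), Rpl22 (1.08), Rps27l (0.96) and Rpsa (0.73), the last not called without nCX WT replicate 2 or 3 or HPC WT replicate 1. The 6 members not called were Rps4l (0.18), Rps27a (0.45), Rps3 (0.46), Rps9 (0.52), Rpl4 (0.54) and Rpl7 (0.60). Of these, Rps27a, Rps3, Rps9, Rpl4 and Rpl7 were named after their values were seen.

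OPC fell into 5 clusters that differed in share and depth. Cluster 11, led by the precursor genes *Pdgfra* and *Cspg4*, had a median share of 8.98% over 786 cells. Cluster 8, led by *Bmp4* and *Neu4* of committed precursors, had 11.0% over 1281 cells, and cluster 26, led by the division genes *Top2a* and *Mki67*, had 14.0% over 338 cells. Clusters 15 (13.8%) and 27 (16.3%) were mainly cells of the shallow HPC WT replicate 2, with medians of 1242.5 and 741 UMIs per cell. Among oligodendrocytes, cluster 14 stood at 5.68% and cluster 7 at 2.64% at median depths of 7155 and 7862.5 UMIs. These medians pool libraries of both regions, and the order of the clusters was not the same in each: cluster 26 lay below cluster 8 in nCX WT replicate 3 (6.44% and 7.90%) and above it in HPC WT replicate 3 (16.0% and 11.8%).

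Microglia, compared with interneurons in the 4 WT libraries that had at least 10 of them, held more of most members. Of 78, 51 were called higher and 0 lower, against 9.79% of 12400 genes called higher. The median change was 0.97 over the members and -0.95 over all genes, with 22 small and 29 large subunit genes called. For the 0 called lower by edgeR QL, 61 members had an unadjusted p under 0.05 and DESeq2 called 45 higher and 0 lower. Library-size scaling moved the median of all genes to -0.57 and that of the members to 1.44, with 69 called higher.

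Rplp0 stood at 3075, 2170.0 and 1545 CPM in microglia of nCX WT replicates 1, 2 and 3 and at 2099 in HPC WT replicate 3. Each of these lay above every interneuron library, the highest of which had 352 CPM. The change was 2.63 (SE 0.263, adjusted p = 5.43e-22). Rps29, the small zinc-binding protein of the small subunit head, stood at 4074, 5440.3 and 4081 CPM in nCX and 4419 in HPC WT replicate 3, against 569 to 1073 over the 6 WT interneuron libraries. Its change was 2.35 (SE 0.255, adjusted p = 1e-18), with no overlap. The microglia fit had 8 sums and 3 residual degrees of freedom, against 12 and 5 in OPC minus oligodendrocyte. With so few libraries, the adjusted p values of Rplp0 and Rps29 are a poor measure of the spread between libraries. Their size should not be set against that of the other class comparisons.

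Rps12 rose by 2.20 (SE 0.264) and Rps9 by 2.17 (SE 0.256), followed by Rps4x (1.86), Rplp1 (1.71), Rpl22 (1.67) and Rplp2 (0.83), the last not called by DESeq2 or without nCX WT replicate 1 or 3 or HPC WT replicate 3. Rpsa (0.73, adjusted p = 0.0156; called without nCX WT replicate 1 or 2), Rps27l (0.63) and Rps4l (-0.73) were not called. Rpl3, the most abundant member in interneurons, had a change of 0.01, and Rpl31 had -0.22. The sums of microglia were small, 16, 37, 104 and 43 cells, so these values carry wider errors than those of the other classes.

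**Figure D2:**
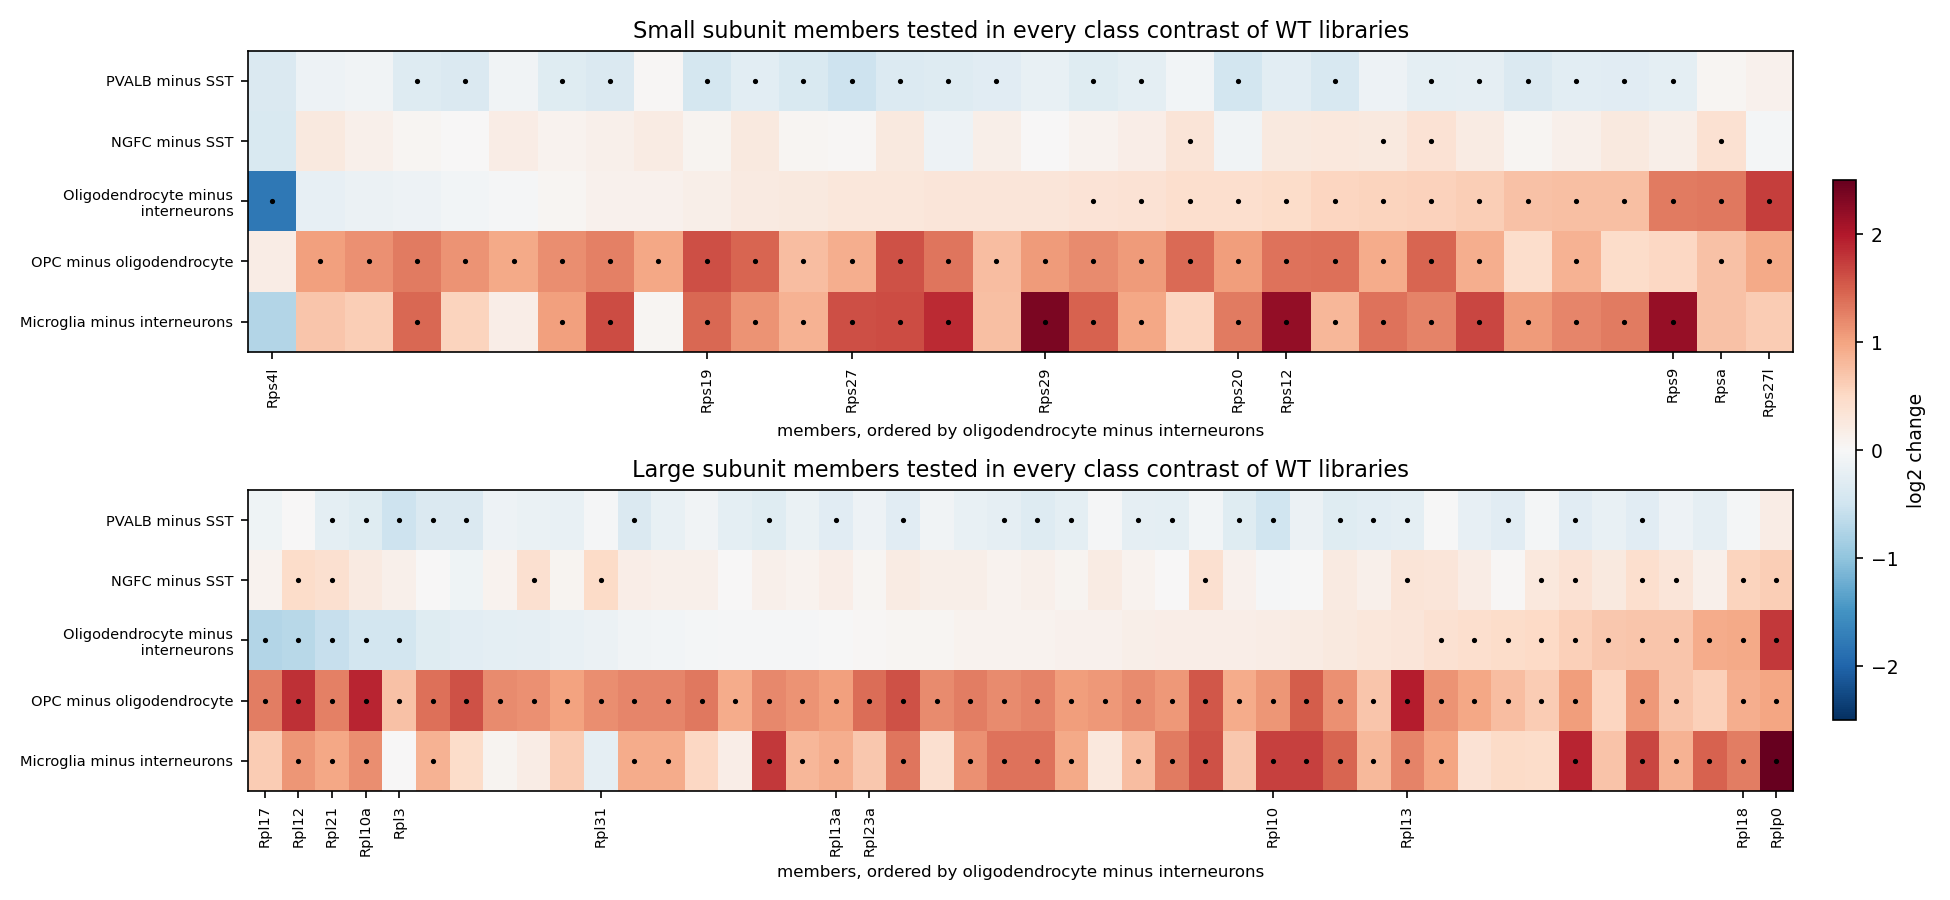
Log2 change (colour, red above 0 and blue below) of each of the 78 tested members (columns, 32 small subunit genes on top and 46 large subunit genes at the bottom) in the 5 class comparisons within WT libraries, with a dot where edgeR QL called the member and names below some members of this text. PVALB minus SST is mostly blue, NGFC minus SST mostly red and OPC minus oligodendrocyte wholly red, while the member median of oligodendrocyte minus interneurons, 0.17, turns to -0.36 with library-size scaling.

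Paralog pairs changed their balance between classes. Rps27l held 21.7% of the UMIs of Rps27 and Rps27l together in SST cells (15.4 to 31.0 over 10 libraries), 30.1% in PVALB (16.0 to 41.1) and 21.4% in NGFC. It held 44.9% in oligodendrocytes (26.9 to 54.0), 45.4% in OPC (26.4 to 58.7) and 13.8% in microglia (7.69 to 26.1). Rps4l took 15.4% of the pair with Rps4x in SST cells, 3.97% in oligodendrocytes (2.08 to 6.26) and 1.54% in OPC (0.908 to 2.17). The lowest SST library had 6.59%, so neither glial range reached it. Rpl3l stood at 0.234% of its pair with Rpl3 in PVALB cells (0 to 0.654) and at 0.053% in SST cells, from 115 UMIs in all. These percents compare levels of different genes that 3′ capture may catch unequally, so the difference between classes, not the level, is the measurement.

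Rpl22l1, whose protein can replace Rpl22 in the ribosome, lies outside the symbol rule. It held 89.6% of the pair with Rpl22 in SST cells (85.8 to 93.9), 73.5% in oligodendrocytes (65.7 to 84.8) and 60.4% in microglia (45.5 to 71.1). In oligodendrocytes Rpl22l1 was called lower (-0.91) and Rpl22 higher (0.70), though Rpl22 was not called with library-size scaling (0.18), while a pair's percent does not depend on the scaling. Rpl36al held 39.6% of its pair with Rpl36a in SST cells and 26.1% in OPC (16.8 to 31.5), and Rpl7l1 held 18.5% with Rpl7 in SST cells (13.6 to 22.5) and 8.23% in oligodendrocytes (6.30 to 11.5).

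**Figure D3:**
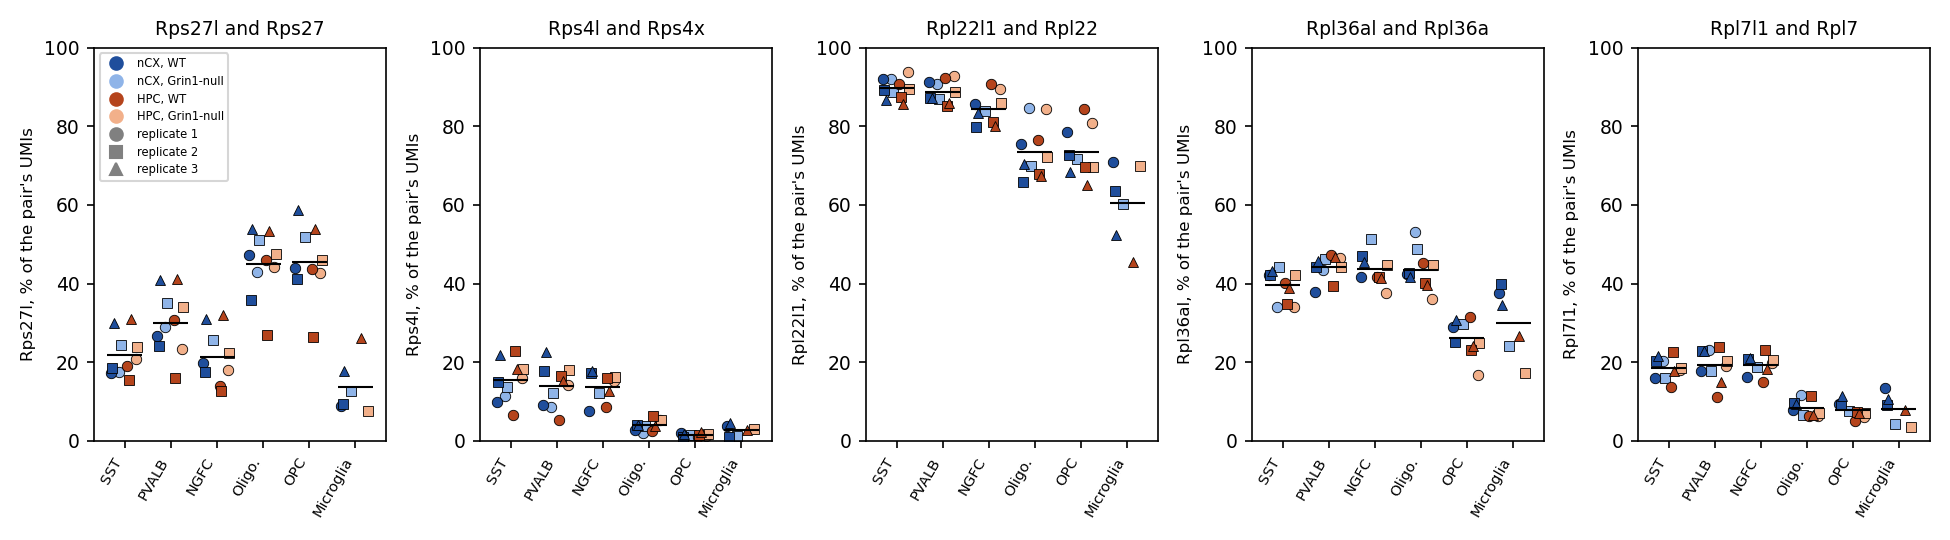
Percent of a paralog pair's UMIs held by the named paralog (vertical axis) in each class (horizontal axis), 1 point per library, with the mean of the libraries as a line. The Rps27l part is higher in oligodendrocytes and OPC than in SST cells on average (44.9% and 45.4% against 21.7%), and the Rps4l part is lower.

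Other genes of cytosolic ribosomal proteins that the symbol rule misses include Rps3a1, Fau, Rack1 (listed under its older symbol Gnb2l1) and the paralogs Rpl22l1, Rpl36al and Rpl7l1. Fau (164120 UMIs) and Rps3a1 (163103) are as abundant as many members. In PVALB against SST cells Rps3a1 (-0.38), Rpl22l1 (-0.37) and Fau (-0.19) were called lower, Fau not with library-size scaling or when any 1 library was left out other than HPC WT replicate 1. In NGFC against SST cells Rack1 had a change of 0.33 and was not called (adjusted p = 0.0303). In oligodendrocytes against interneurons Rack1 (0.55) and Fau (0.43) were called higher, though with library-size scaling neither was and Fau turned to -0.10, and Rpl22l1 (-0.91) and Rpl7l1 (-0.43) were lower, Rpl7l1 not called without HPC WT replicate 3. In OPC against oligodendrocytes Rack1 rose by 1.28, Rpl22l1 by 1.27 and Rps3a1 by 1.27, with Fau at 0.23 uncalled. In microglia Fau (2.01), Rack1 (1.78) and Rps3a1 (1.37) were called higher.

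Genes that build ribosomes, such as those of nucleolar RNA processing and RNA polymerase I, were counted as a companion list of 32. For this and the later lists, the share of all genes called was 23.6% in PVALB and 21.1% in NGFC against SST cells. It was 69.5% in oligodendrocytes against interneurons, 52.2% in OPC against oligodendrocytes and 31.1% in microglia against interneurons. In PVALB against SST cells 0 were called by edgeR QL or DESeq2, with Npm1 (-0.19) and Bop1 (-0.44) among the smallest adjusted p. In NGFC 2 were called higher, Nhp2 (0.62) and Ncl (0.45). In oligodendrocytes 9 were higher and 10 lower than in interneurons, beside 69.5% of all genes called in either direction, and the median of -0.06 moved to -0.58 with library-size scaling. The largest of these included Sbds (2.03), which frees Eif6 from new large subunits, and Nop10 (-1.88) and Nop58 (-1.28) of nucleolar RNA-protein particles. In OPC 16 were higher and 1 lower than in oligodendrocytes, with a median of 0.59, beside 24.9% of all genes called higher. All genes had a median of -0.06 there, or 0.51 with library-size scaling. Nop58 (1.83) and Nhp2 (1.80) rose and Sbds fell by 1.65. In microglia 0 were higher and 3 lower by edgeR QL, beside 31.1% of all genes called. DESeq2 gave 0 higher and 2 lower, and the median was -0.63 beside -0.95 over all genes.

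The 9 genes listed with elongation include Tpt1 and Eef1e1, which are not elongation factors. In PVALB against SST cells 2 were higher and 1 lower. Eef1a1, itself a TOP gene, changed by -0.47, while the neuronal isoform Eef1a2 (0.28) and Eef2 (0.27) rose. Eef2 was uncalled when any 1 library was left out other than HPC WT replicate 1. In NGFC Eef2 (0.43) and Eef1a2 (0.30, uncalled without replicate 3 of nCX or HPC WT) were higher and Eef1e1 (-0.54) lower. In oligodendrocytes 4 were higher and 2 lower, beside 69.5% of all genes called, with Eef1a2 at -5.64, Eef1d at 2.05 and Eef2 at 1.34, and the list's median flipped from 0.12 to -0.40 with library-size scaling. In OPC 4 were higher than in oligodendrocytes, among them Eef1b2 (0.88) and Eef1g (0.96), beside 52.2% of all genes called. In microglia 3 were higher and 3 lower, with Tpt1 at 1.54 and Eef1a2 at -4.38, beside 31.1% of all genes called.

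Among the 29 initiation factor genes, 3 were lower and 0 higher in PVALB against SST cells: Eif3e (-0.48), Eif4a2 (-0.27, uncalled without nCX WT replicate 1 or 2) and Eif3k (-0.24, uncalled without nCX WT replicate 1, 2 or 3 or HPC WT replicate 3). In NGFC 4 were higher, Eif4a1 (0.47), Eif3f (0.46, uncalled without HPC WT replicate 3), Eif3a (0.33, uncalled when any 1 library was left out other than HPC WT replicate 1) and Eif4g2 (0.32). In oligodendrocytes 13 were higher and 3 lower, beside 69.5% of all genes called, and the helicase isoforms split, Eif4a1 at 1.42 and Eif4a2 at -2.27; the list's median of 0.29 flipped to -0.24 with library-size scaling. In OPC 1 was higher, the poly(A)-binding protein gene Pabpc1 (0.54, uncalled without nCX WT replicate 2 or HPC WT replicate 1), and 3 lower, and in microglia 2 were higher and 5 lower. In OPC the list's median was 0.06, beside -0.06 over all genes, of which 52.2% were called. Its difference from the ribosomal proteins was not tested. In microglia 31.1% of all genes were called.

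The list for mTORC1 and Larp1, the regulators of TOP messengers, had 14 genes. In PVALB against SST cells Larp4 (0.32) was called higher, though not by DESeq2 or without nCX WT replicate 1, 2 or 3 or HPC WT replicate 3, and in NGFC 0 were called by edgeR QL or DESeq2, with Eif4ebp1 at -1.69 (adjusted p = 0.0273). In oligodendrocytes 4 were higher and 4 lower than in interneurons, beside 69.5% of all genes called, with Deptor, an inhibitor of mTOR, at 1.85, Rheb, its activator, at -1.54 and Larp1 at -1.07, and the median flipped from 0.14 to -0.38 with library-size scaling. In OPC 3 were higher and 3 lower than in oligodendrocytes, beside 52.2% of all genes called. Eif4ebp1, the translation inhibitor that mTORC1 phosphorylates, rose by 3.32, Rheb rose by 0.69 and Deptor fell by 4.25 on the log2 scale; the list's median flipped from -0.26 to 0.31 with library-size scaling. In microglia 1 was higher, Eif4ebp1 (3.86), and 3 lower, beside 31.1% of all genes called.

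The mitochondrial ribosome, which has its own proteins, served as a contrast, with 75 genes tested. In PVALB against SST cells 9 were higher and 1 lower with a median of 0.11, while 1304 of all 11898 genes were called higher, a like share. In NGFC 4 were higher, with a median of 0.04. In oligodendrocytes 8 were higher and 38 lower (median -0.35, or -0.87 with library-size scaling), beside 32.8% of all genes called higher and 36.7% lower. In OPC 14 were higher and 9 lower than in oligodendrocytes (median 0.13, or 0.72), beside 52.2% of all genes called and 24.9% called higher. In microglia 0 were higher and 37 lower by edgeR QL (median -1.54, or -1.17), where DESeq2 gave 0 higher and 25 lower, beside 2640 of 12400 genes called lower and a median of -0.95 over all genes. Mrps35 (0.57) in PVALB cells, Mrpl52 (1.91) in OPC and Mrps36 (-2.76) in microglia were among the named examples.

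General neuron genes and immediate early genes were counted to follow cell identity and dissociation. Of 9 neuron genes, 1 was higher and 3 lower in PVALB and 5 higher and 2 lower in NGFC, each against SST cells. All 9 were lower in oligodendrocytes (median -6.52) and in microglia (median -5.96) than in interneurons, while in OPC 2 of 7 were higher than in oligodendrocytes. Of the 13 listed immediate early genes, 3 were higher and 2 lower in PVALB and 2 higher and 1 lower in NGFC. There were 4 higher and 4 lower in oligodendrocytes, 1 higher and 6 lower in OPC and 3 higher and 0 lower in microglia. Of all genes, 69.5% were called in oligodendrocytes, 52.2% in OPC, 31.1% in microglia, 23.6% in PVALB and 21.1% in NGFC. In microglia their summed level, led by Jund, stood at 359, 6663 and 1158 CPM in nCX WT replicates 1, 2 and 3 and at 584 in HPC WT replicate 3. The null libraries of nCX and HPC had 15516 and 13177 CPM, above each WT library, while their ribosomal protein sums (133843 and 123145 CPM) lay within the WT range of 98024 to 155809 CPM.

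Between regions, the shares of interneurons and oligodendrocytes overlapped. In WT libraries the SST share was 4.52%, 4.19% and 3.70% in nCX replicates 1, 2 and 3, and 5.10%, 3.82% and 3.80% in HPC. The ranges overlapped, and HPC minus nCX within a replicate was 0.572, -0.364 and 0.104 points. PVALB had 3.86%, 3.54% and 3.25% in nCX and 4.16%, 3.50% and 3.46% in HPC, also overlapping. NGFC (5.06%, 4.26% and 4.53% in nCX; 5.88%, 4.03% and 4.46% in HPC) and oligodendrocytes (3.49%, 3.24% and 3.09% in nCX; 3.88%, 2.80% and 3.23% in HPC) overlapped too. In each of these classes HPC was above nCX in replicate 1 and below it in replicate 2, the replicate whose HPC library was shallow.

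For these classes edgeR QL called 0 of 78 members between regions, with 0 at an unadjusted p under 0.05, and DESeq2 called 0. Of all genes, 0.0418% were called in SST cells, 0.0114% in PVALB, 0% in NGFC and 0% in oligodendrocytes. The member medians, beside those of all genes, were 0.01 and 0.03 in SST, 0.09 and 0.02 in PVALB, 0.12 and 0.02 in NGFC and 0.14 and 0.04 in oligodendrocytes. With the replicate number as a block, 0, 4, 1 and 2 members reached an unadjusted p under 0.05 in these classes, and edgeR QL called 0, beside 3.13%, 0.798%, 0.144% and 0.778% of all genes. The companion lists had 0 calls by edgeR QL in these comparisons as well.

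OPC were the exception in the share. Medians of 7.16%, 7.47% and 7.15% in nCX WT replicates 1, 2 and 3 stood against 12.9%, 14.4% and 11.6% in HPC. Every HPC library lay above every nCX library, by 5.79, 6.92 and 4.45 points within replicates. The cells were 64, 185 and 317 in nCX and 382, 965 and 820 in HPC, with median UMIs of 1904, 1438 and 1920.0 against 2172, 1072 and 3547. The share also varied with depth inside libraries. In cells of 2000 to 5000 UMIs it was 7.70%, 13.6% and 8.68% in nCX WT replicates 1, 2 and 3, against 15.4%, 14.1% and 11.8% in HPC, so the gap in replicate 2 was narrow at this depth. At 1000 to 2000 UMIs it was 6.08%, 6.64% and 6.28% in nCX against 11.2%, 14.8% and 7.57% in HPC. Under 1000 UMIs it was 5.18% and 5.25% in nCX replicates 2 and 3 against 13.9% and 5.56% in HPC, and in the depth range that starts at 5000 UMIs it was 13.6% (16 cells) against 14.5% in replicate 3. The part of depth in the gap was not tested. This comparison of genes was added after the shares had been seen.

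At the level of single genes, edgeR QL called 0 of 78 members between regions in OPC and 0% of 8120 genes, with 42 members at an unadjusted p under 0.05, and DESeq2 called 0 with 52. The member median was 0.85 beside 0.05 over all genes, and 78 of 78 lay above 0. Library-size scaling moved the median of all genes to -0.15 and that of the members to 0.64, with 4 at an unadjusted p under 0.05. With the replicate number as a block edgeR QL called 0 members and 65 of 8838 genes, and 75 members had an unadjusted p under 0.05. The difference in share was thus wider than the spread between libraries, while no single member passed the threshold.

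The largest change was that of Rps28, at 1.29 (SE 0.506), and the smallest that of Rpl13, at 0.37 (SE 0.34), although Rpl13 had the largest rise from oligodendrocytes to OPC. Rplp0 stood at 851, 1555 and 1325 CPM in nCX WT OPC and at 3012, 1113 and 3061 in HPC. HPC WT replicate 2 lay among the nCX libraries, and the change was 1.13 (SE 0.435, adjusted p = 0.999). Rps28 was chosen here after its values were seen.

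In WT libraries the gap between regions was also seen inside clusters. In cluster 11, the *Pdgfra* cells, nCX WT libraries had shares of 6.08%, 6.16% and 6.25%, and HPC WT replicates 1 and 3 had 12.5% and 9.94%. In cluster 8, nCX WT libraries had 7.37%, 8.38% and 7.90%, and the same HPC libraries 12.0% and 11.8%. In the cycling cluster 26 the shares were 5.55% (6 cells), 11.3% and 6.44% in nCX WT and 20.2%, 13.7% and 16.0% in HPC WT. HPC WT replicate 2 had only 2 and 9 cells in clusters 11 and 8.

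The markers of OPC and of neurons were summed beside this gap. The 9 OPC markers, led by Ptprz1, summed to 4099, 5919.5 and 5113 CPM in nCX WT OPC and 2835, 4176 and 3597 in HPC. The 9 general neuron genes summed to 185, 133 and 350.0 CPM in nCX and 92.8, 135 and 106 in HPC. The ranges of these lists overlapped between regions, unlike the share, although the OPC markers were lower in HPC within each replicate, and their part in the gap was not tested.

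**Figure D4:**
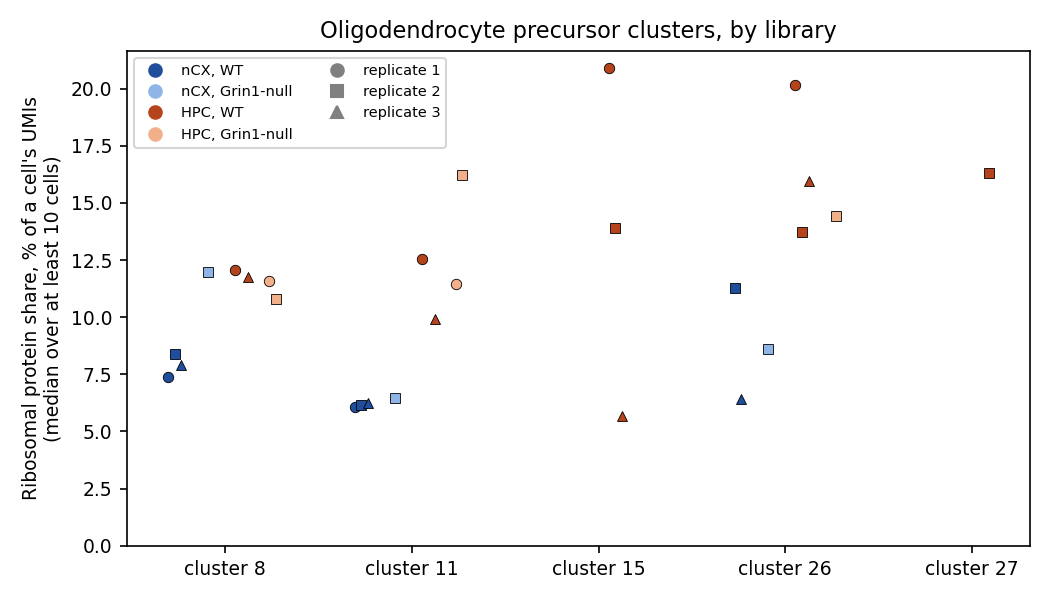
Median ribosomal protein share of UMIs per cell (percent, vertical axis) in each OPC cluster (horizontal axis), 1 point per library with at least 10 cells there, coloured by region and genotype. In cluster 11 the nCX libraries lie between 6.08% and 6.48% and the HPC libraries between 9.94% and 16.2%, while in cluster 8 nCX null replicate 2 (12.0%) lies above HPC WT replicate 3 (11.8%) and the HPC null libraries (11.6% and 10.8%).

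Loss of Grin1 was seen in the counts of the deleted gene. In SST cells Grin1 stood at 153, 254 and 232 CPM in nCX WT replicates 1, 2 and 3 and at 36.7 and 28.0 in null replicates 1 and 2. In HPC it stood at 121, 174 and 158 CPM in WT and 21.4 and 22.0 in null. Null and WT libraries did not overlap. The log2 changes by edgeR QL were -2.74 in nCX (SE 0.33, adjusted p = 0.028) and -2.78 in HPC (SE 0.33, adjusted p = 0.0253), short of the threshold of 0.01, which DESeq2 passed in both. Whether the 3′ tag lies in the deleted part is not known.

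Null and WT shares overlapped in SST cells and were closer to separate in PVALB cells. SST null libraries had 3.78% and 4.07% in nCX (median UMIs 6752 and 13960.5) and 4.35% and 3.66% in HPC (12402.5 and 15036). Both null ranges overlapped those of the WT libraries, whose median UMIs ran from 1886.5 to 10811. PVALB null libraries had 3.03% and 3.26% in nCX and 3.40% and 3.02% in HPC. The nCX groups overlapped, and both HPC null libraries lay below all 3 WT libraries of HPC. NGFC had 4.13% in the nCX null library with enough cells, below its WT libraries, and 4.69% and 4.22% in the HPC null libraries, within the WT range.

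Compared within the same replicate number, null lay below WT in 4 of 4 pairs for SST, 4 of 4 for PVALB and 2 of 3 for NGFC. The classes come from the same libraries, so their pairs are not independent. The gaps in SST were -0.747 and -0.122 points in nCX and -0.750 and -0.161 in HPC, and those in PVALB were -0.833, -0.284, -0.760 and -0.477. Replicate 1 gave the wider gap each time, and its null libraries were the smallest, with 177 and 401 cells. Null oligodendrocytes, with 2.96% and 3.33% in nCX and 3.41% and 3.04% in HPC, lay below WT in 2 of 4 pairs. OPC null libraries had 9.37% in nCX and 11.4% and 11.2% in HPC, below WT in 2 of 3.

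No member passed the test between genotypes. In SST cells edgeR QL called 0 of 78 members in nCX and 0 in HPC, and 0 for the interaction of genotype and region, beside 0% of 12847 genes each. Members at an unadjusted p under 0.05 numbered 0, 1 and 0, and DESeq2 called 0. The member medians were -0.06 in nCX and -0.08 in HPC, beside -0.02 and -0.03 over all genes. In PVALB cells edgeR QL called 0 members in nCX, beside 0.0104% of 9659 genes, and 0 in HPC and for the interaction, beside 0% each. There 0, 1 and 0 members had an unadjusted p under 0.05, DESeq2 called 0, and the medians were -0.15 and -0.22 beside -0.01 and -0.02.

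In NGFC cells edgeR QL also called 0 members in nCX, HPC and the interaction, beside 0% of 9739 genes each, with 0, 1 and 0 at an unadjusted p under 0.05 and 0 by DESeq2. The medians were -0.22 and -0.13, and nCX rested on 1 null library, which the fit assumes to vary like the others. In oligodendrocytes it called 0 in all 3, beside 0% of 10798 genes each, with 0 at an unadjusted p under 0.05, 0 by DESeq2 and medians of -0.13 and -0.02. With the replicate number as a block, edgeR QL called 0 in each of these comparisons, with 0 to 11 members at an unadjusted p under 0.05, and the companion lists had 0 calls. A p over the threshold does not show that the levels were equal.

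The member at an unadjusted p under 0.05 was Rpl27a in each of the 3 interneuron classes of HPC, named after its values were seen. In SST cells it stood at 244, 249.6 and 231 CPM in HPC WT replicates 1, 2 and 3 and at 126 and 150.4 in null. In nCX it stood at 212, 218 and 236 in WT and 154 and 202 in null. Null lay below WT in both regions without overlap. The HPC change was -0.78 (SE 0.235, adjusted p = 0.971) in SST, -0.97 (SE 0.261, adjusted p = 1) in PVALB and -0.75 (SE 0.317, adjusted p = 0.956) in NGFC, by edgeR QL, and these classes come from the same libraries.

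The replicate number, which marks the 10x chemistry, went with large differences in some members. Replicate 1 is 1 WT library per region, and the fit counts the libraries as independent although same-numbered ones correlated. The paper describes slices holding both regions and reports their WT cells as from the same brains. Same-numbered libraries therefore likely share mice. Replicate 1 would then be a single session, and the calls below carry no spread between sessions of its chemistry. In the WT libraries the SST share was higher in replicate 1 than in the mean of replicates 2 and 3 by 0.934 points, or by 0.583 without HPC WT replicate 1. In SST cells 2 of 78 members were called higher and 0 lower by edgeR QL, beside 0.0722% of 12457 genes called higher. An unadjusted p under 0.05 was reached by 28 members, beside 2655 of the 12457 genes. DESeq2 called 11 members higher and 2 lower, beside 374 of all genes called. The member median was 0.26 beside -0.02 over all genes, and 50 of 78 lay above 0. In oligodendrocytes edgeR QL called 0 members, beside 0% of 10545 genes. An unadjusted p under 0.05 was reached by 26 members, beside 2799 of the 10545 genes. DESeq2 called 8 members higher and 2 lower, beside 314 of all genes called. The medians there were 0.20 and -0.05, and library-size scaling moved them to 0.04 and -0.19.

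Rpl23a, a protein at the exit of the peptide tunnel, stood at 479 and 578 CPM in SST cells of WT replicate 1 of nCX and HPC, and at 462 and 581 in null replicate 1. The replicates made with v3 had 90.7 and 55.0 CPM in nCX WT, 85.0 and 72.6 in HPC WT, and 52.0 and 63.5 in null. The chemistries did not overlap in either genotype, and the change in WT was 2.82 (SE 0.241, adjusted p = 0.00386). Rpl13a, known to leave the ribosome in monocytes treated with interferon gamma, stood at 1455 and 1643 CPM in WT replicate 1 and at 382, 410.2, 320.0 and 476 in WT replicates 2 and 3. Its change was 1.98 (SE 0.205, adjusted p = 0.00758).

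These SST calls depended on single libraries. Without nCX WT replicate 1, nCX WT replicate 2 or HPC WT replicate 1 the SST count was 0 by edgeR QL, without nCX WT replicate 3 it was 1, without HPC WT replicate 2 it was 8 and without HPC WT replicate 3 it was 13. Beside these 8 and 13 members, 171 of 12583 and 739 of 12697 genes were called. In oligodendrocytes the count was 7 without HPC WT replicate 2, beside 212 of 10084 genes called. It was 15 without HPC WT replicate 3, beside 1351 of 10273 genes. Rpl23a (2.94, adjusted p = 0.0179) and Rpl13a (1.89, adjusted p = 0.0409) were the largest uncalled changes in oligodendrocytes. Among the falls, Rpl30 had -1.16 in SST cells and -1.13 in oligodendrocytes and Rps21 had -0.91 and -1.22, all uncalled and named after their values were seen. Rpl17 (1.49), Rpl4 (1.38), Rps15 (1.35) and Rps14 (1.34) were among the next changes in SST cells, also uncalled and named after their values were seen.

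The starts of the members' genes were read for the letters of the TOP motif. RefSeq promoters (GRCm38.p6, 250 bases before to 50 after the start) matched 58 of the 79 members by symbol, and the first listed promoter was used. Within 40 bases around the start, on the strand of the gene, CTTTC was found in 29.3% of members and in 5.38% of 27025 promoters, CTTCC in 24.1% and 8.97%, and CTTTT in 10.3% and 4.19%. At least 1 of the 3, which may overlap, was in 50.0% and 17.2%. Over the whole 300 bases and both strands CCGGAAG, a core bound by ETS factors, was in 39.7% and 9.12%, and AAGATGG, a core of the YY1 motif, in 13.8% and 6.48%. A match is a description of letters, not a site, and a window without them says nothing of the factor.

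The windows below are those of some members named above, with any of these letters in capitals: Rpl13 and Rpl12, which rose in OPC, Rps12, which rose in microglia, and the paralogs Rps27 and Rps27l. They lie at chr8:123102330-123102369 (+ strand), chr2:32961692-32961731 (+), chr10:23787190-23787229 (-), chr3:90213629-90213668 (-) and chr9:66946066-66946105 (+) of GRCm38.p6, from RefSeq, each read 5′ to 3′ on the strand of its gene.
Rpl13: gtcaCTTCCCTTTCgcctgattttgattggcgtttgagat
Rpl12: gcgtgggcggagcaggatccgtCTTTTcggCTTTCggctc
Rps12: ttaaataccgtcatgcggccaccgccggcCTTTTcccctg
Rps27: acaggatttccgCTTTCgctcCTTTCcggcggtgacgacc
Rps27l: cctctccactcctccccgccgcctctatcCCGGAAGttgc
Rpl13, Rpl12, Rps12 and Rps27 each hold a start motif, while the window of Rps27l holds only CCGGAAG. The windows of Rpl10a and Rps19, which also rose in OPC, and of Rplp0, Rpsa and Rps9 hold no start motif and are not printed. Rplp0 was called higher in 4 class comparisons, Rpsa in 3 and Rps9 in 2, while Rps9 was called lower in 1.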

How the data were processed

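Single-cell UMI counts came from 4 matrices in which the authors deposited raw UMI counts per gene and barcode, made with Cell Ranger (2.1.1 in the methods, 3.0.2 in the matrix headers) on the mm10 genome, gene ends lengthened by up to 4 kb. Barcode suffixes gave 10 libraries, matched to replicates by the cell numbers in the methods. Cells with 200 to 6000 genes and under 30% of UMIs on 37 mitochondrial genes were kept. The filter removed more null than WT cells. It kept 2578 of 2898 barcodes in nCX null replicate 2 and 4055 of 4436 in HPC null replicate 2. In WT replicate 2 it kept 3830 of 3851 in nCX and 4599 of 4600 in HPC. The paper reports cells above this mitochondrial limit in null replicates only. Seurat 5.3.0 (R 4.3.3) integrated 2000 variable features, members left out, over 25 dimensions and clustered at resolution 1.0; clusters were named by at least 3 class markers at 20 CPM. Scrublet in scanpy 1.11.5 (expected rate 0.06) marked 249 cells as doublets, which were kept.

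Counts of at least 10 cells were summed per library and class and tested with edgeR 4.0.16 (TMM, filterByExpr, quasi-likelihood test, Benjamini-Hochberg adjustment), with DESeq2 1.42.0 as an alternative. Planted changes were tested on simulated data. The study itself tested cells with MAST, which was not used. Same-numbered WT libraries of nCX and HPC correlated over genes (r = 0.732, 0.651 and 0.422 in SST cells, 9639 genes), so a replicate block was run, although the number also marks the chemistry.

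Named members were the 5 highest and 5 lowest in interneurons, per comparison the 4 largest called rises and falls, the stalk genes, Rpsa, Rpl22, Rps4x and paralogs, and of each companion list at most 4 genes by smallest adjusted p. The members and lists were chosen with earlier results of these data known. Python 3.11.15, pandas 2.3.3 and scipy 1.17.1 did the rest.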

Additional observations from a re-analysis of the deposited data

Results flagged for a closer look

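In OPC the ribosomal protein share differed between genotypes in opposite directions in the 2 regions: null minus WT was 2.12 percentage points in nCX, with 1 null library, and -1.65 points in HPC, with 2 null and 3 WT libraries. In neither region did null and WT libraries overlap, and the difference between the regions was not tested. The directions depended on depth and cluster. In cells of 2000 to 5000 UMIs nCX null replicate 2 had 6.16%, below nCX WT replicates 1, 2 and 3 (7.70%, 13.6% and 8.68%), and cluster 8 held 70.3% of its OPC against 43.8%, 41.1% and 48.6% in WT. In cluster 11 the HPC null libraries (11.4% and 16.2%) overlapped HPC WT replicates 1 and 3 (12.5% and 9.94%).

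The 252 features with -ps in their symbols, outside the comparisons, held 52062 UMIs, and Rpl39l, under the minimum for a member, held 30 UMIs.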

How the results depend on the processing

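Besides leaving out libraries, 216 counts of called members stayed within 1.5 times the reported count and 224 differences in share moved by less than the spread between libraries, while 12 counts and 3 shares moved further. For these the cause was not tested. Many of the 216 come from region and genotype comparisons with a reported count of 0, so they say little on stability. Counts were compared in total, so 46 in oligodendrocytes minus interneurons with library-size scaling is among the 216, although 6 were higher and 40 lower there against 26 and 6 as reported. The oligodendrocyte share, null minus WT in nCX, was -0.125 points as reported, 0.259 with classes given to single cells and 0.251 when no cell was left out as well. PVALB minus SST over the WT libraries alone was -0.560 with the main settings and -0.843 at resolution 1.4, where the reported -0.650 is over all 10 libraries. Member counts in PVALB minus SST were 16 with the Oxt and Avp cluster counted as PVALB, added after seeing the data, and 0 with no library block. In NGFC minus SST they were 28 at an adjusted p under 0.05 and 0 with no library block. In oligodendrocytes minus interneurons they were 49 with classes of single cells and 12 with no library block. For replicate 1 in SST cells they were 8 at an adjusted p under 0.05, 14 with no filter on low counts and 13 with DESeq2, and in oligodendrocytes 2, 9 and 10 under the same alternatives. Of all genes, 153, 750 and 374 were called under these in SST cells and 44, 646 and 314 in oligodendrocytes.

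Leaving out 1 library at a time gave 27 to 45 calls in PVALB minus SST, 10 to 22 in NGFC minus SST, 28 to 31 in oligodendrocytes minus interneurons, 67 to 77 in OPC minus oligodendrocytes, 41 to 60 in microglia, 0 to 13 in SST replicates, 0 to 15 in oligodendrocyte replicates and 0 in the region and genotype comparisons. With the replicate number as a block all 17 counts of region and genotype were 0. For 186 changes of single named genes, those of the class comparisons among them, a gene was no longer called in 75 cases and became called in 8 when a library was left out. Under the other alternatives 108 were no longer called, 55 of these with no library block and 12 with library-size scaling, and 62 became called. Signs turned in oligodendrocytes minus interneurons with library-size scaling for Fau (called, to -0.10), Rplp1 (-0.31) and Rps4x (-0.23), with classes of single cells for Rplp2 (0.22), and in NGFC minus SST with no library block for Rplp1 (0.0198). Leaving out a library gave -0.0052 to 0.115 for Rpsa in PVALB minus SST, -0.0467 to 0.0167 for Rplp1 and -0.111 to 0.0016 for Rps27l in NGFC minus SST, -0.0931 to 0.0367 for Rplp2 in oligodendrocytes and -0.10 to 0.28 for Rps4l in OPC, each uncalled as reported. The stricter cell filter left too few microglia for a count.

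Null groups held 1 or 2 libraries, which limits every genotype comparison, and libraries pooled mice, so spread between animals could not be seen. HPC WT replicate 2 was shallow and formed clusters of its own.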

Other observations

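Some classes and clusters lay outside the comparisons. Glutamatergic cells averaged a ribosomal protein share of 4.52% ± 0.931 (SD, n = 7 libraries), astrocytes 4.03% ± 0.930 (n = 9), choroid plexus cells 5.44% ± 1.24 (n = 4) and endothelial cells 8.26% ± 0.443 (n = 2). Cluster 30, unnamed and led by *Igfbpl1*, *Neurod1*, *Draxin* and *Eomes*, genes of immature neurons, held 12.4% over 163 cells at a median of 1316 UMIs, above each named neuron class. Clusters 21 (511 cells) and 32 (65 cells), unnamed, with medians of 655 and 591 UMIs, held 0.575% and 0.573%.

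The Oxt and Avp cluster had shares of 4.19%, 4.35% and 3.72% in nCX WT replicates 1, 2 and 3, and 5.71%, 4.86% (6 cells) and 4.83% in those of HPC. Its null libraries had 3.88% and 3.74% in nCX and 5.29% (3 cells) and 5.20% in HPC, so all HPC libraries lay above all nCX libraries.

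A tail of interneurons had a share under 1.5%. It held 60 of 779 cells in HPC WT replicate 3, 121 of 1779 in HPC null replicate 2 and 61 of 1010 in nCX null replicate 2, against 3 of 804 in nCX WT replicate 1 and 0 of 199 in HPC null replicate 1. In WT replicate 2 it held 37 of 1823 cells in nCX and 19 of 1523 in HPC. The remaining libraries had 66 of 2371 (nCX WT replicate 3), 6 of 518 (HPC WT replicate 1) and 5 of 134 (nCX null replicate 1). In HPC WT replicate 3 these cells had a median of 1655 UMIs, against 10395 in the other interneurons, with 5.06% of UMIs on mitochondrial genes against 1.56% and 7.36% on Malat1 against 1.62%. Their part in the medians of the classes was not tested.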
